A study of Homo sapiens with 2 samples.

Results

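MIR142, MIR155, MIR150, MIR122 and MIR128-1 are 5 microRNA genes best known from tissues other than ovarian epithelium, and each held at least 1 RRN3 peak in SK-OV-3 cells. The peaks described here were chosen by position, as every listed peak whose midpoint lay in the body of 1 of these genes on the strand of the gene. The genes themselves were picked with the list of peaks known, so the presence of a peak in each is how they were selected and not a finding. This rule gave 19 of the 7793 peaks in the list. The 5 genes were among 156 microRNA genes that held a peak, and the other 151 genes held 452 peaks. These 151 are all genes that the annotation types as microRNA, and they include SNORD138, which has a small nucleolar RNA symbol and no mature strand in the sequence table.

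RRN3 is an initiation factor of RNA polymerase I, and the study asked which RNAs it contacts in the ovarian cancer line SK-OV-3. The cells stably expressed RRN3 with a V5 tag at its N-terminus from a lentiviral vector with the EF1a promoter. Whether these cells kept their own RRN3 is not given in the sources used here. The cells were labelled with 100 μM 4-thiouridine for 14 h and irradiated at 365 nm with 0.2 J/cm2, which crosslinks labelled RNA to bound protein (PAR-CLIP). From 1 lysate, treated with RNase A and DNase I, 1 library was made from RNA precipitated with anti-V5 antibody and 1 from input RNA. The result is a single list of peaks, with a fold enrichment and a p-value for each peak as the authors computed them. With 1 library per condition there is no replicate check, every value below is a description of these libraries, and read depth was not analysed here. Over the 7793 peaks the fold enrichment was spread evenly between 2.00 and 4.00, with 1931, 1975, 1939 and 1948 peaks in 4 steps of equal width. It had almost no rank correlation with the p-value (Spearman's rho 0.0176 across peaks, which are not independent). The scale of the fold is not given in the sources used here, so folds are printed as listed and the genes are ordered by p-value. The false discovery rate listed beside the p-value was the same for all 7793 peaks, at its highest possible value. What that value means is not known, so the p-values serve for order only.

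A microRNA is cut from a folded transcript in steps by the nuclear enzyme DROSHA with DGCR8 and the cytoplasmic enzyme DICER1. Either arm of the hairpin, 5p or 3p, can give a mature strand that is loaded into an Argonaute protein and pairs with messenger RNAs mainly through its seed. miR-142, miR-155 and miR-150 are known from blood and immune cells, miR-122 is the most abundant microRNA of hepatocytes, and miR-128 is enriched in neurons.

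The mature strands that carried the peaks are shown because nearly all of the peak bases lay in them. The sequences are from RefSeq on GRCh38, 5′ to 3′, with the seed (bases 2 to 8) in capitals. By symbol, 4 of the 5 genes were matched in the sequence table, and MIR150 was not.
miR-142-5p: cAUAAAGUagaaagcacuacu
miR-142-3p: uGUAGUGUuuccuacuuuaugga
miR-155-5p: uUAAUGCUaaucgugauagggguu
miR-122-5p: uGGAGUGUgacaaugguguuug
miR-128-1-5p: cGGGGCCGuagcacugucugaga
miR-128-3p: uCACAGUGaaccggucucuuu

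The hairpins of 3 of the genes are given to show where the peaks began and ended, with each base inside a peak in capitals. The MIR142 hairpin (chr17:58331232-58331318, minus strand) had 47 of 87 bases in a peak. In MIR122 (chr18:58451074-58451158, plus strand), 23 of 85 bases were covered. In MIR128-1 (chr2:135665397-135665478, plus strand), 43 of 82 were covered. In MIR142 and MIR128-1 the capitals form 2 blocks, 1 on each arm, and the loop between them is in lower case. In MIR122 there is a single block, on the 5p arm.
MIR142: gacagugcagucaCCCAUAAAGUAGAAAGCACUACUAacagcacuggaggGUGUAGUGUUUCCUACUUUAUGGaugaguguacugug
MIR122: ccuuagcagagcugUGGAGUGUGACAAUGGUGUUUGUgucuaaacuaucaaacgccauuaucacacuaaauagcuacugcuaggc
MIR128-1: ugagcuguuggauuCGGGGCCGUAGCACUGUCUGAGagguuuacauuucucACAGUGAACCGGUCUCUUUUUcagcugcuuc

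**Figure D1:**
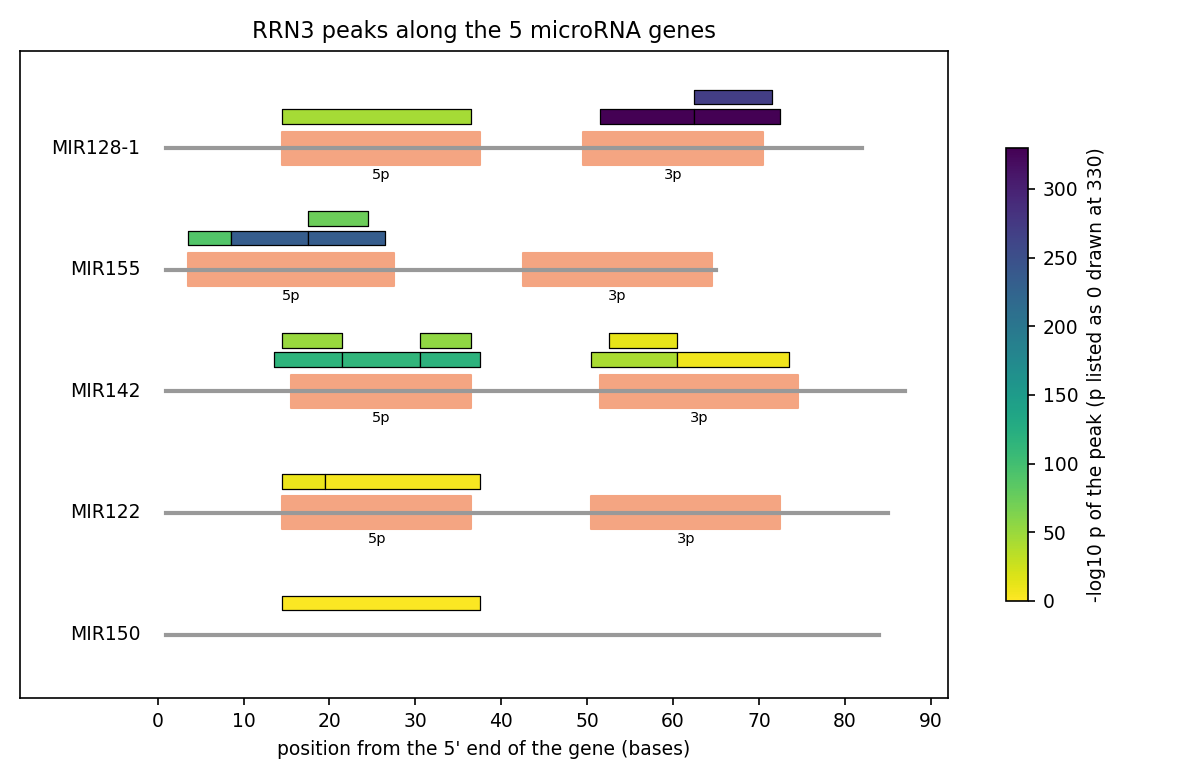
Map of the 19 peaks along the 5 microRNA genes, with the position in bases from the 5′ end of each gene on the horizontal axis. Grey lines are gene bodies, orange boxes are annotated mature strands, and outlined boxes are peaks coloured by -log10 of their p-value. Peaks lie on both arms of MIR142 and MIR128-1 and on the 5p arm of MIR155 and MIR122. MIR150 has 1 peak and is drawn without mature strands.

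MIR142, a gene of the haematopoietic lineages, held the most peaks of the 5, with 8. Of these, 5 lay on the 5p arm and 3 on the 3p arm. The fold enrichment of the 8 peaks ran from 2.27 to 3.82. The lowest p-value on the 5p arm was 1.58e-118, at bases 31 to 37 of the gene. On the 3p arm it was 1.62e-42, at bases 51 to 60. Both arms of this hairpin are known to give functional strands, and here both were covered almost from end to end. Touching peaks of the same strand were therefore joined into sites, which gave 1 site of 24 bases on 5p and 1 of 23 bases on 3p. The 5p site (chr17:58331282-58331305) began 2 bases before the annotated mature strand and ended 1 base after it. The 3p site (chr17:58331246-58331268) was shifted by 1 base towards the 5′ end at both of its ends.

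MIR155 is induced in activated lymphocytes and macrophages, and its gene on chr21:25573980-25574044 (plus strand) held 4 peaks, all on the 5p arm. The lowest p-value, 3.29e-234, was listed for 2 adjoining peaks, at bases 9 to 17 and 18 to 26. Fold enrichments of the 4 peaks were between 2.14 and 3.25. They joined into 1 site of 23 bases (chr21:25573983-25574005) that began at the first base of miR-155-5p and ended 1 base before its last. No peak touched miR-155-3p, the passenger strand of this hairpin.

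MIR150, a microRNA of mature lymphocytes, held 1 peak of 23 bases, at bases 15 to 37 of the gene (chr19:49500832-49500854, minus strand). Its fold enrichment was 2.41 and its p-value 0.00387, the weakest of the 5 genes. In the whole list this peak ranked 7442 of 7793 by p-value.

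MIR122 held 2 peaks on the 5p arm, at bases 15 to 19 and 20 to 37. Their p-values were 9.16e-10 and 4.66e-05. Their listed folds were 3.78 and 3.76, larger than those of the MIR155 peaks, whose p-values were far lower. The joined site of 23 bases (chr18:58451088-58451110) began at the first base of miR-122-5p and ended 1 base past its last.

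MIR128-1 was the only gene of the 5 with a p-value listed as 0. It held 4 peaks, 1 on the 5p arm and 3 on the 3p arm. The 5p peak had a p-value of 5.38e-45 and a fold of 2.78. On the 3p arm, from which the neuronal strand miR-128-3p comes, 2 adjoining peaks had a p-value listed as 0, with folds of 3.99 and 2.59. The 5p site of 22 bases (chr2:135665411-135665432) began with the mature strand and ended 1 base short of it. The 3p site of 21 bases (chr2:135665448-135665468) was shifted by 2 bases towards the 3′ end at both of its ends. It thus left out the first base of the strand and the first base of its seed, if the listed starts are 0-based as read here. Read as 1-based, each peak would begin 1 base earlier on the genome, and the site would include that seed base. Of the 2 genes with peaks on both arms, the lower p-value was on 5p in MIR142 and on 3p in MIR128-1.

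Several of these peaks shared bases or adjoined each other. Of the 19 peaks, 5 lay inside another peak of the same gene, as did 137 of the 7793 peaks with another peak of their strand. Joining nested and adjoining peaks gave 7 sites, so the 19 peaks are not separate measurements. The 7 sites were 21 to 24 bases long with a median of 23. Sites in the other microRNA genes had a median of 22 bases, and the 4524 joined sites of the whole list had a median of 17.

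The position of the sites in the hairpin was not used to choose the genes. In the 4 genes with annotated strands, 129 of 136 peak bases lay in a mature sequence, which is 94.9% (95% Wilson interval 89.8 to 97.5%, over bases, which are not independent). All 6 sites of these genes had both ends within 2 bases of the annotated ends. Over the other 150 microRNA genes with an annotated strand, 3316 of 3696 peak bases lay in a mature sequence, or 89.7% (88.7 to 90.7%). Some of these genes lack separate 5p and 3p entries in the sequence table, and a peak on an arm without an entry counts as outside. In the 125 other genes with both arms in the table, the share was 95.6% (94.8 to 96.3%), a restriction that was added after seeing the data. The 4 member genes were thus close to other microRNA genes in this respect. Mature sequences made up 46.0% of the bodies of all these genes.

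Site ends were also compared gene by gene. In the 125 other genes with both arms in the table, 142 of 143 sites touched a mature strand. Both ends were within 2 bases in 95 of these sites (66.9%), against 6 of 6 in the members. Peaks lay on 5p alone in 63 of the other genes, on 3p alone in 43 and on both arms in 18. Among the members, MIR155 and MIR122 had 5p alone, MIR142 and MIR128-1 had both arms, and none had 3p alone.

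**Figure D2:**
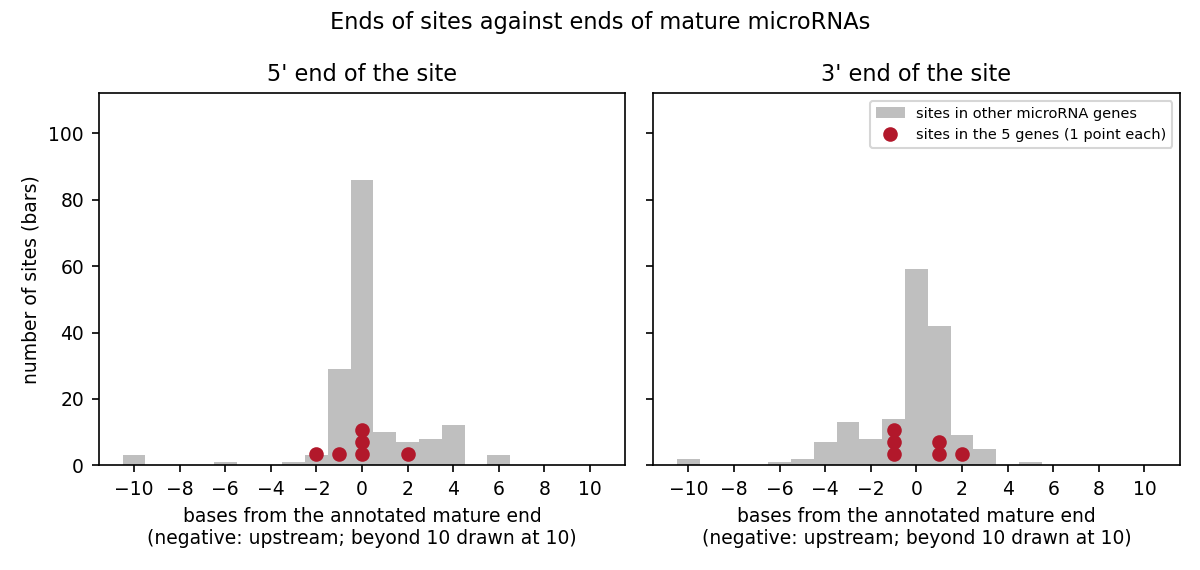
Distance in bases between the ends of each site and the annotated ends of the mature strand it overlaps, for 5′ ends (left) and 3′ ends (right). Bars count 163 sites in other microRNA genes, and each red point is 1 of the 6 sites in MIR142, MIR155, MIR122 and MIR128-1, stacked for visibility only. The 6 sites lie between -2 and 2 at both ends, where most of the other sites also lie.

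The genes were then placed among all microRNA genes by their lowest p-value. MIR128-1 shared the value 0 with 52 others, among which no order can be given. MIR155 came 59th of 156, with MIR429 (2.79e-287) before it and MIR16-2 (4.36e-211) after it. MIR142 came 77th, between MIR197 (3.87e-119) and MIR1224 (9.48e-116), and its lowest p-value was closest to that of MIR197, at a distance of 0.61 on the -log10 scale. MIR122 came 147th, next to MIR34A (1.03e-09) at a distance of 0.05 and to MIR8072 (6.60e-11). MIR150 came 153rd, between MIR127 (0.00194) and MIR379 (0.00812). The members therefore spanned nearly the whole order. Their median lowest p-value was 1.58e-118, and that of the other 151 genes was 3.50e-115. By number of peaks, MIR142 with 8 was near the top, as 2 other genes had 8 or more and the highest count was 9.

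**Figure D3:**
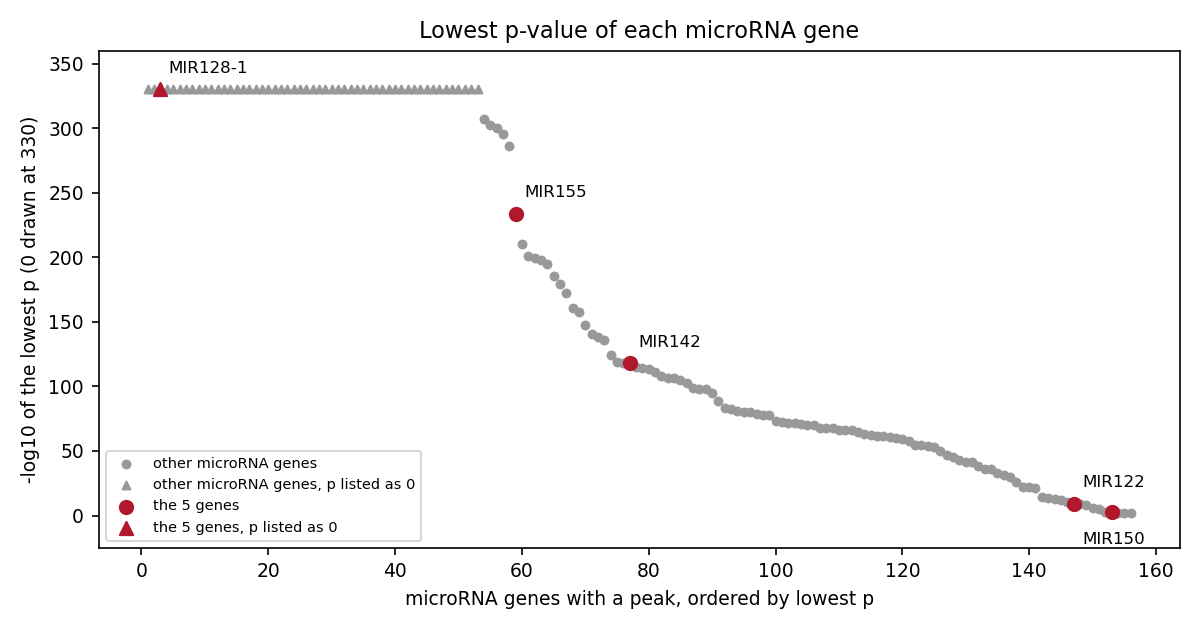
Lowest p-value of each of the 156 microRNA genes with a peak, as -log10 on the vertical axis, in order of that value on the horizontal axis. Red symbols are the 5 genes and grey symbols the other 151, and triangles at the top are the 53 genes with a p-value listed as 0, drawn in arbitrary order. MIR128-1 is among these, MIR155 and MIR142 follow, and MIR122 and MIR150 are near the end.

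Peaks were found in 156 of 1879 annotated microRNA genes, or 8.3%, and in 10.3% of the 1509 on the 19 chromosomes with any peak. Chromosomes 7, 8, 9 and X were among those without any, so the first share includes genes that could not be counted. All 5 members are in this count by choice. With the 3896 peaks of lowest p-value, MIR142, MIR155 and MIR128-1 were kept, and 6.76% of all microRNA genes held a peak. With the 779 of lowest p-value, MIR155 and MIR128-1 were kept, and 3.19% of all microRNA genes held a peak. The peaks of MIR150 and MIR122 were among the higher p-values of the list, whose median was 2.21e-47. Of the 19 member peaks, 12 (63.2%) were at or below this median, compared with 72.1% of the 452 peaks in other microRNA genes.

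MicroRNA genes known from particular tissues were then counted in lists drawn up from general knowledge, with earlier results of these data known. In the blood cell list, 4 of 8 genes held a peak, namely the 3 members MIR142, MIR155 and MIR150 and also MIR146A, an inflammation-induced microRNA, with 3 peaks and a p-value of 0. The erythroid genes MIR144 and MIR451A held none. In the liver list, 3 of 3 held a peak, MIR122, MIR885 with a lowest p-value of 1.56e-55 and MIR192 with 6.06e-296. MIR122 had the highest p-value of the 3. MIR192 is also expressed in kidney and gut. In the brain list, 3 of 15 genes held a peak, MIR128-1, MIR137 with a p-value listed as 0 and MIR132 at 1.04e-78. The other brain genes without a peak included MIR128-2, MIR9-1 and MIR124-3. Some listed genes lay on chromosomes without any peak, 2 of the blood cell list and 4 of the brain list. Since the 5 members were picked for their peaks, they fill these counts by choice. Without them, 1 of 5 blood cell genes, 2 of 2 liver genes and 2 of 14 brain genes held a peak, beside 8.3% of all microRNA genes. The lists are too short to be read against that share.

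The lists for other tissues hold no member. None of 9 genes of muscle and none of 8 genes of pluripotent cells held a peak, beside 10.3% of microRNA genes on chromosomes with any peak. Both lists are also too short to be read against that share. All 7 genes of the epithelial list held a peak, with lowest p-values from 0 in MIR200A to 3.58e-13 in MIR200C. The others were MIR200B, MIR429, MIR141, MIR203A and MIR205. In the list of microRNAs found in most tissues, 7 of 9 held a peak, namely MIR21, MIR16-2, MIR103A2, MIR191, MIR22, MIR30A and MIR92A1. MIR122 and MIR150 thus had higher p-values than any gene with a peak in these 2 lists, while MIR128-1 shared the value 0 with MIR200A and with MIR21, MIR191, MIR22 and MIR30A. All 7 lists were written with earlier results of these data known, so their counts are descriptions and no difference between lists is read from them. The lists hold few genes, members of a cluster share a transcript, and a peak does not measure how much of a microRNA the cells contain.

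Protein-coding markers of the same tissues were examined to set the label of the 5 genes beside other genes of those cell types. As background, 15.9% of protein-coding genes on chromosomes with any peak held a peak in the gene body, and 3.63% held a peak in an exon. None of 12 blood cell markers, among them PTPRC, CD3E, LYZ and HBB, held a peak. Of the 10 liver and the 10 brain markers, 9 each lay on such chromosomes. Of 10 liver markers, FGB and TF held a peak in an intron, with lowest p-values of 5.68e-119 and 1.70e-36, and ALB, APOA1 and TTR held none. Of 10 brain markers, RBFOX3, MBP, MAP2 and GAD1 held a peak, and the single exonic peak, in GAD1, had a p-value of 0.0191. The markers differ in length, and the part of gene length in these counts was not tested. Of 11 epithelial markers, PAX8, CDH1 and ERBB2 held a peak, while KRT8, KRT18 and EPCAM did not. Only 1 of the 11, CDH1, held peaks in an exon, 2 with a lowest p-value of 1.51e-33. The 6 peaks in ERBB2 all lay in the microRNA gene MIR4728. The tissue of origin of the 5 microRNAs is therefore background knowledge, and the cells were not typed from these peaks.

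The host genes of 4 members held no further peaks. MIR142 lies in an exon of MIR142HG, MIR155 in an exon of MIR155HG and MIR122 in an exon of MIR122HG, all long non-coding RNA genes of the same strand. MIR128-1 lies in an intron of R3HDM1, a protein-coding gene of 193816 bases. In each of these 4 host genes every peak was in the microRNA, and 0 were elsewhere. Among protein-coding genes on chromosomes with any peak, 15.9% held a peak in the gene body. No such share is given here for long non-coding RNA genes. The absence of further peaks is therefore not read as particular to these hosts. For MIR150 the annotation listed no host gene on its strand. TSPOAP1-AS1 and MIR3591, on the opposite strand of MIR142 and MIR122, held 0 peaks. No peak lay within 50 bases outside any of the 5 genes, and none lay on the other strand within them.

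The nearest peaks that the rule left out lay 116 to 648 kb from MIR142, MIR155, MIR150 and MIR122. Such distances are not given here for other genes, so these are not read as long or short. On the same strand, the distance to the next peak was 276 kb for MIR142 (in TEX14, p-value 8.63e-05), and 648 kb for MIR155 (in LINC01692, 6.79e-64). For MIR150 it was 247 kb (in TSKS, 4.77e-113). For MIR122 it was 116 kb (in NEDD4L, 6.36e-17). Drawing the gene ends 50 bases further out on each side added no peak.

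Copies of a sequence in the genome could share reads, so they were counted on both strands. The sequence of each of the 6 sites in MIR142, MIR155, MIR122 and MIR128-1 occurred once in the genome. The mature strand miR-128-3p occurred 2 times, in MIR128-1 and in MIR128-2, and MIR128-2 held no peak. The site in MIR128-1 runs past the shared strand by 2 bases at its 3′ end. Seeds were shared with few other genes. That of miR-128-3p is also found in miR-216a-3p and in a strand of MIR3681. MIR216A held peaks on its 5p strand, not on the strand with this seed, and MIR3681 held none. The seed of miR-142-5p recurs in MIR5590, without a peak, and that of miR-128-1-5p in MIR128-2. No other gene in the table had the seed of miR-142-3p, miR-155-5p or miR-122-5p.

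Because 4-thiouridine is incorporated in place of uridine, the uridine content of the sites was counted. It was 47.8% for the 3p site of MIR142 and 16.7% for its 5p site, the arm with the lower p-value. In MIR128-1 it was 38.1% on 3p, the arm with the lower p-value, and 18.2% on 5p. The 2 genes thus ran in opposite ways. The sites in MIR122 and MIR155 had 39.1% and 34.8%. Over the 6 sites the median was 36.4%, and over 173 sites in other microRNA genes it was 26.1%, with a range from 0 to 72.7%. The part of uridine content in the p-values was not tested.

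Genes of the microRNA pathway were examined last. Of 14, 5 held a peak in the gene body, DROSHA, DGCR8, DICER1, TNRC6A and TNRC6B, and 2 held one in an exon, beside 15.9% and 3.63% of protein-coding genes on chromosomes with any peak. Of the 14 genes, 13 lay on such chromosomes, and AGO2 did not. The 3 peaks of DGCR8 all lay in MIR1306 and the 4 of DICER1 all in MIR3173, so these too were peaks of microRNA hairpins, and 3 of the 14 genes held a peak outside small RNA genes. DROSHA held 2 exonic peaks with a lowest p-value of 1.38e-95. TNRC6A and TNRC6B, partners of Argonaute proteins, each held 1 intronic peak, with p-values of 1.92e-269 and 1.90e-14. None of AGO1, AGO3 and AGO4 held a peak.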

How the data were processed

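PAR-CLIP libraries of 1 anti-V5 immunoprecipitate and 1 input from SK-OV-3 cells were analysed as the list of peaks that the authors deposited. The genome build, GRCh38, is named in the submitters' processing notes. The aligner, the peak caller and its threshold are not given in the sources used here. Each peak has a deposited fold enrichment, a ratio whose scale is not given in the sources used here. The p-value and the FDR (false discovery rate) of each peak were computed by the authors with a test that is not given in the sources used here. The deposited FDR and score were 1 for all 7793 peaks and were not used further. The p-value was listed as 0 for 580 peaks, which have no order among themselves. Length equalled end minus start for all peaks, so positions were read as 0-based with the end left out, and are printed 1-based. The sources used here do not state this, and with 1-based starts each site would gain 1 base at its lower coordinate. The number of columns of other samples was 0.

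Peaks were assigned by midpoint to gene bodies of GENCODE release 44 on the strand of the gene, and touching peaks of a strand were joined into sites. Mature and hairpin sequences came from a RefSeq table for GRCh38. All 283 mature sequences of microRNA genes with a peak were equal to the genome at their listed positions, and 154 of the 156 genes were matched by symbol. Python 3.11.15 was used with numpy 2.4.6, pandas 2.3.3, scipy 1.17.1 and matplotlib 3.10.9, and the assignment was tested on simulated data. No test was run, since each condition has 1 library. The members and lists were chosen with earlier results of these data known. Named genes are the members, genes of the tissue and microRNA pathway lists with a peak, host and overlapping genes, genes that share a mature strand or seed, neighbours in the order of the lowest p-value and the nearest peak outside each member, of which that of 1 member is not reported here. Other listed genes are examples, chosen after their values were seen. Alternatives were overlap in place of the midpoint, either strand, lower p-values, joined sites, longer mature strands, longer gene bodies and chromosomes with any peak. Genes with both arms in the sequence table were added after seeing the data.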

Additional observations from a re-analysis of the deposited data

How the results depend on the processing

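Of 97 values under alternative settings, over 18 results, 72 stayed within 1.5 times the main count or within the 95% interval of the main share, and 25 moved. Assignment by overlap or on either strand, and 50 more bases at each gene end, left the members at 19 peaks. The 3896 peaks with the lowest p-values left 12 peaks in 3 member genes. The 779 peaks with the lowest p-values left 5 peaks in 2 member genes, 60 microRNA genes in place of 156 and 13 tissue list genes in place of 24. Joined, the 19 peaks gave 7 sites. With fewer peaks, fewer counts follow by construction. The muscle and pluripotent cell lists had a count of 0, which could not move with fewer peaks, and these values are among those that stayed. The share of member peak bases in a mature strand was 100% with 2 more bases at each end of the strand, since the sites overran it by at most 2 bases. In other microRNA genes the share was 92.9% with these bases, 86.6% for the 779 peaks of lowest p-value, and 95.6% for genes with both arms in the table, a setting chosen after seeing the data. The cause of the lower share was not tested. No paired analysis was possible because each condition has 1 library and the result comes from no test. Read counts behind the peaks were not analysed here, so intervals cover bases only and nothing can be said of variation between cultures. The list holds peaks that passed the authors' threshold, so a gene without a peak may still have had reads. It holds no peak at all on some chromosomes, among them 7, 8, 9 and X, and the reason was not tested. Absence of a peak from a gene on these chromosomes therefore says nothing of that gene.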

Other observations

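Among microRNA genes, some mature strands are encoded identically by 2 genes. Covered by a peak were 4 examples of these, miR-125b-5p, miR-128-3p, miR-16-5p and miR-194-5p, which are not given as a full count. In each case 1 of the 2 genes held the peak, namely MIR125B1, MIR128-1, MIR16-2 and MIR194-2, while MIR125B2, MIR128-2, MIR16-1 and MIR194-1 held none on that strand. The full sites in these 4 genes each occurred once in the genome, although the mature strands do not. The 4 pairs were chosen with their values in view.

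Other microRNA genes with peaks on both arms were counted where both arms have an entry in the sequence table. Genes such as MIR10B, with a site on an arm without an entry, were not counted. In the 18 genes, the lower p-value was on 3p in 9, on 5p in 4 and tied in 5. It was on the arm with more uridine in 5 genes, on the arm with less in 8 and tied in 5.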
